A study of Mus musculus with 24 samples.

Results

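The comparison described here set mouse small intestinal organoids treated with Senexin B for 24 h against organoids given the vehicle DMSO for 24 h. Its members were the 6 libraries labelled with these agents and this time point, 3 with Senexin B and 3 with DMSO, out of 24 libraries in the series. Senexin B is a small molecule that inhibits CDK8 and CDK19. Per the study's methods it was used at 10 μM on organoids called wild type, and the study derived its organoids from Cdk8 lox/lox mice with or without Villin-CreERT2, a Cre that is driven in epithelial cells and activated by tamoxifen. The labels give neither the dose, the strain nor the age of the donor mice. A shared protocol mentions 7 days of 600 nM 4-hydroxytamoxifen, and it does not say whether these libraries received it. The series also held the same treatment at 16 h with DMSO libraries of its own, and organoids of 4 genotypes (wild type, loss of Cdk8, loss of Cdk19, loss of both). Of those, the 16 h libraries and the double knockout with its wild type, 3 libraries each, are used below beside the 24 h values.

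CDK8 and CDK19 are closely related kinases. Each can join cyclin C, MED12 and MED13 (or their paralogues) in the kinase module of Mediator, the large complex that passes signals from transcription factors to RNA polymerase II. The module binds reversibly and can raise or lower transcription depending on the gene. The crypts of the small intestine hold Lgr5-positive stem cells and Paneth cells, and their progeny become absorptive enterocytes or secretory goblet, enteroendocrine and tuft cells, all of which an organoid contains in part. The comparison asked which transcripts changed when the kinases were inhibited rather than deleted.

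The 6 tables held 36119629 to 36255610 reads each, of which 27201638 to 28405118 were counted on genes in the strand column used here. Of the annotated genes, 15467 had enough counts to be tested. The first principal component of the 6 libraries carried 54.4% of their variance and separated Senexin B from DMSO. The second carried 20.3% and set replicate 1 of both groups apart from replicates 2 and 3. The summed level of 9 epithelial markers was 268543 to 287187 normalised counts with DMSO and 336779 to 356518 with Senexin B. Fibroblast and muscle markers summed to 192 to 208 and 238 to 351, with Lum at 0, and Dcn, Lum and Des were under 5 in every library. Leukocyte markers summed to 112 to 129 and 95.4 to 121, with Adgre1 at 0, and endothelial markers to 29.5 to 46.5 and 32.8 to 46.7, with Cdh5 and Kdr under 5. Of these markers of other cells, Myh11, Vim and Csf1r rose, and no endothelial marker passed the test. A normalised count is a read count scaled to a common library size, so levels are compared between libraries and not between genes.

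Of the 15467 genes tested, 4252 (27.5%) changed at an adjusted p under 0.05, 2293 (14.8%) upwards and 1959 (12.7%) downwards. Most changes were small: 523 genes (3.38%) changed by more than 2-fold. The median change over all genes tested was 0.00 on the log2 scale. Deviations from the group mean correlated clearly between the libraries numbered 1 (r = 0.377). They correlated less between those numbered 2 (0.137) or 3 (0.187), and DMSO replicate 3 with Senexin B replicate 2 gave 0.147. A fit of only the 6 libraries at 24 h with the replicate number as a block, called the block below, called 6642 of 15006 genes (44.3%), 22.2% higher and 22.1% lower. Of the 4252 genes, 4198 were also called in that fit, all in the same direction. The 6 libraries without the block gave 4605 calls and the block on all 12 libraries 5872. DESeq2, another count test, called 4254 genes without the block in 12 libraries and 4228 with it in 6. Without Senexin B replicate 2 the fit without the block called 2656 genes. In 7055 genes (45.6%) the 3 libraries of each group did not overlap.

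**Figure D1:**
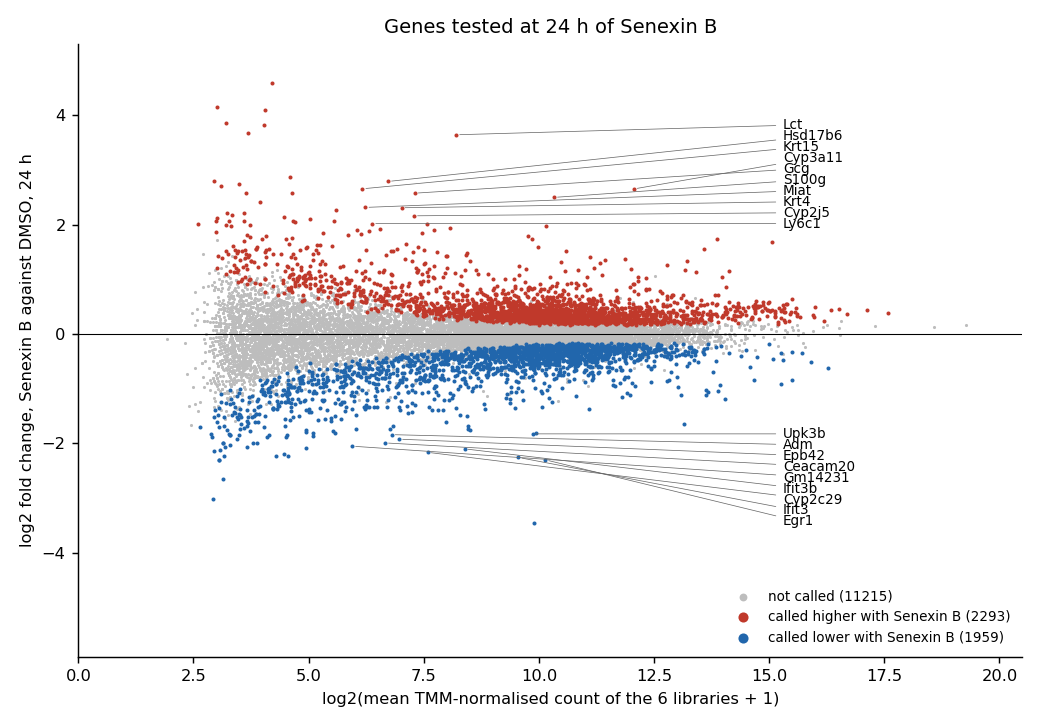
Each point is a gene, placed by its mean level over the 6 libraries (log2 of normalised count + 1) and its log2 fold change with Senexin B at 24 h. The 10 largest rises and 9 of the 10 largest falls among well expressed genes are named, from Lct at 3.64 to Egr1 at -2.30, and called genes lie on both sides of 0 at every level.

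The largest rise among genes that averaged 50 or more normalised counts was that of Lct (chr1:128284756-128328318, GRCm38), which encodes lactase, the brush border enzyme that splits milk sugar. It had 59.1, 41.9 and 29.5 normalised counts with DMSO and 542, 571 and 518 with Senexin B in replicates 1, 2 and 3. The rise was 12.5-fold (log2 fold change 3.64 ± 0.31 SE, adjusted p = 4.53e-06). The largest rises and falls were taken only from called genes whose groups did not overlap, so that separation is no result. S100g, which encodes the calcium-binding protein calbindin-D9k of absorptive cells, went from 403, 416 and 340 to 2309, 2252 and 1981 normalised counts. That was a 5.64-fold rise (adjusted p = 2.94e-06). Gcg, the preproglucagon gene of enteroendocrine L cells, rose 5.95-fold, from 46.5, 49.7 and 39.1 to 241, 268 and 298 (adjusted p = 6.66e-07). Cyp3a11 (chr5), a cytochrome P450 that oxidises bile acids and foreign compounds, had 1534, 1013 and 972 normalised counts with DMSO and 6597, 7173 and 8318 with Senexin B. The rise was 6.28-fold (adjusted p = 6.66e-07), and its paralogue Cyp3a25 rose 3.45-fold with the smallest p-value of all genes named here (adjusted p = 2.72e-07).

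Other large rises came from genes of several kinds. Hsd17b6, which encodes a steroid- and retinoid-oxidising dehydrogenase, rose 6.90-fold, and the keratin genes Krt15 and Krt4 rose 6.29-fold and 4.95-fold. Krt15 had 22.3, 26.3 and 9.53 normalised counts with DMSO and 126, 115 and 126 with Senexin B, so it stayed a low-level transcript. The long non-coding RNA Miat rose 4.97-fold, the arachidonate-oxidising Cyp2j5 4.47-fold and Ly6c1 4.05-fold. Among highly expressed genes, Tmsb4x, which encodes the actin-sequestering thymosin β4, rose 2.21-fold from 10727 to 11558 up to 23807 to 25833 normalised counts (adjusted p = 6.66e-07). Slc20a1, a phosphate transporter gene, rose 2.64-fold (adjusted p = 1.19e-06).

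Among the largest falls was that of an immediate early gene. Egr1, a zinc finger transcription factor gene of the immediate early class, fell 4.92-fold, from 2212, 1735 and 1660 to 380, 373 and 386 (log2 fold change -2.30 ± 0.15 SE, adjusted p = 6.66e-07). Its treated libraries lay close together. Cyp2c29, another cytochrome P450 gene, fell 4.48-fold, from 422, 268 and 247 to 61.6, 69.0 and 78.2 (adjusted p = 4.44e-05).

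Ceacam20, a carcinoembryonic antigen family gene of the brush border, fell 3.98-fold, and Upk3b, a uroplakin gene, fell 3.54-fold. Epb42, which encodes the membrane skeleton protein 4.2, fell 3.79-fold, and Adm, the gene of the vasodilator peptide adrenomedullin, fell 3.58-fold. The processed pseudogene Gm14231 was 4.14-fold lower, a value that near-identical copies could share. The interferon-stimulated genes Ifit3 and Ifit3b were also among the largest falls and are given with their group below. Smaller in size but with very small p-values were the falls of P4ha1 (2.51-fold, adjusted p = 1.49e-06) and Clrn3, a clarin gene (1.6-fold, adjusted p = 4.53e-06).

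**Figure D2:**
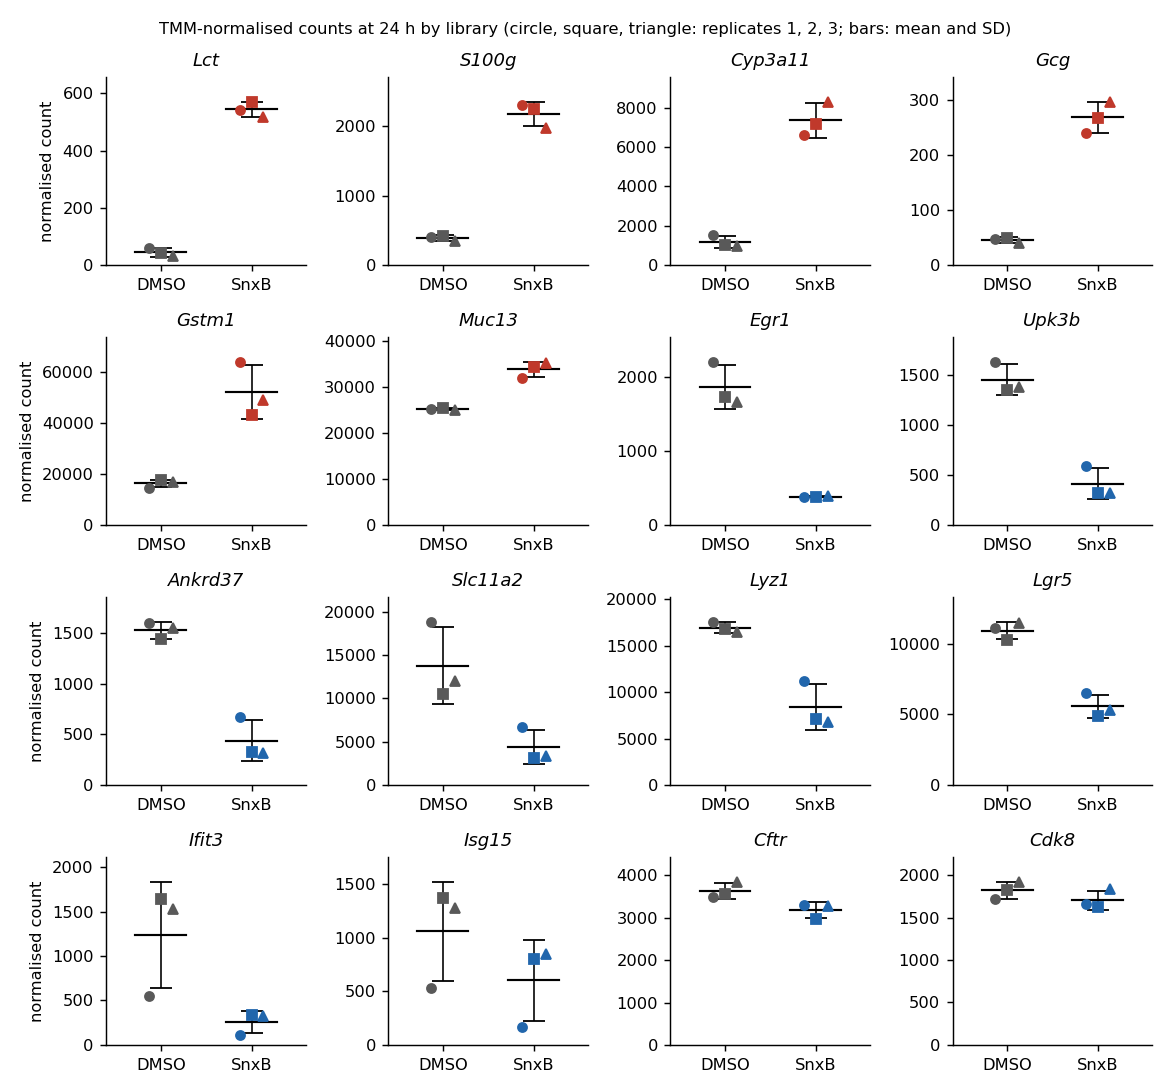
Normalised counts of 16 genes in each of the 6 libraries at 24 h, on linear axes that start at 0. Circles, squares and triangles are replicates 1, 2 and 3, bars show mean and SD, and colour gives the direction of the mean difference. Lct, S100g, Cyp3a11 and Gcg lie apart from DMSO at the top left, replicate 1 is lowest in both groups for Ifit3 and Isg15, and Isg15, Cftr and Cdk8 at the lower right were among the genes not called when all 12 libraries were fitted without the replicate block.

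The target kinases and their partners were looked at next. Cdk8 had 1714, 1826 and 1919 normalised counts with DMSO and 1654, 1621 and 1833 with Senexin B, overlapping groups that did not pass the test (log2 fold change -0.10 ± 0.09 SE, adjusted p = 0.474). An inhibitor of kinase activity need not move these transcripts, so their level does not check the treatment. Cdk19 was lower by 1.19-fold (adjusted p = 0.0375) although its groups overlapped, and an antisense gene covers part of it. Ccnc, the cyclin C gene, did not pass (log2 fold change -0.15 ± 0.10 SE, adjusted p = 0.312). The scaffold genes fell further: Med13 by 1.66-fold (adjusted p = 0.000327), Med12 by 1.37-fold and Med13l by 1.26-fold. In all, 4 of 6 tested kinase module genes fell, against 12.7% of all genes, and none rose, with a median of -0.29. These are long transcripts, with a median summed exon length of 8768 bases, and after a correction for exon length 2 of 6 fell, and 4 with that correction and the block. Without Senexin B replicate 2 only 1 was called, and without DMSO replicate 1 or Senexin B replicate 3 it was 2. Of 26 core Mediator subunits 2 rose and 4 fell, and with the block 7 rose and 4 fell, counts too close to the shares of all genes to say anything about the group. The largest changes were those of Med14 (-0.41), Med1 (-0.33) and Med8 (0.32).

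Genes of glycolysis and of the response to low oxygen fell together. Of 26 tested members of this list 24 fell and none rose, with a median of -0.52, against 12.7% of all genes called lower. The list holds the glycolytic enzymes and targets of the hypoxia-inducible factors, transcription factors that are stabilised when oxygen is low. Ankrd37, which encodes an ankyrin repeat protein induced by hypoxia, had 1599, 1436 and 1549 normalised counts with DMSO and 672, 330 and 311 with Senexin B, a 3.49-fold fall (adjusted p = 5.49e-05). Genes on the other strand, Lrp2bp and Ufsp2, overlap it. Slc16a3, the lactate exporter MCT4, went from 3222, 3086 and 3168 to 1802, 904 and 949, a 2.59-fold fall. P4ha1, a subunit of the collagen prolyl hydroxylase, went from 1584, 1505 and 1528 to 722, 555 and 566, and Bnip3, a mitophagy receptor gene, fell 2.35-fold. In Ankrd37, Slc16a3, P4ha1 and Bnip3 the treated replicate 1 lay nearest to the controls, and the groups did not overlap.

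The enzymes themselves moved less. Gapdh fell 1.53-fold, from 96075, 96274 and 93993 to 65654, 61041 and 60348 normalised counts, and Ldha, lactate dehydrogenase A, fell 1.39-fold. Aldoa fell 1.8-fold, and Slc2a1, the glucose transporter GLUT1 counted with another list, 1.73-fold. Vegfa and Car9, the genes of the angiogenic growth factor and of a carbonic anhydrase, fell 1.44-fold and 1.45-fold. The members that did not pass were Hk1 (log2 fold change -0.18 ± 0.11 SE) and Pgam1 (-0.16 ± 0.09 SE). Both passed with the replicate block (adjusted p = 0.0467 and 0.0161) and not with the block on all 12 libraries (adjusted p = 0.0632 and 0.0609). Gapdh, Aldoa and Ldha have many pseudogene copies, so reads shared with them could affect their counts.

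The promoters of the hypoxia list were read for the core of the hypoxia response element, ACGTG on either strand. In the 250 bases before the RefSeq start site (GRCm38.p6), 16 of the 24 list genes with a promoter in the table held it (66.7%), against 18.5% of all 27025 genes. The list was chosen to hold targets of the hypoxia-inducible factors, so a higher share is built in and says nothing about Senexin B. These 3 promoters belong to the members with the largest fall or the smallest p-value. They lie at chr8:45999851-46000100 on the minus strand, chr11:120948817-120949066 and chr10:59323046-59323295, the last 2 on the plus strand, and are written 5′ to 3′ along the gene with the motif in capitals.
Ankrd37: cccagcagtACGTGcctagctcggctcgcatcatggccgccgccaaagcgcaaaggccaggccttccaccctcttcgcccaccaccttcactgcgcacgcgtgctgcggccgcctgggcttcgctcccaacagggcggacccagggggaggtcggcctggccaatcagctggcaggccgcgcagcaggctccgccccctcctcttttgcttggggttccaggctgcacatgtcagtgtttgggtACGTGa
Slc16a3: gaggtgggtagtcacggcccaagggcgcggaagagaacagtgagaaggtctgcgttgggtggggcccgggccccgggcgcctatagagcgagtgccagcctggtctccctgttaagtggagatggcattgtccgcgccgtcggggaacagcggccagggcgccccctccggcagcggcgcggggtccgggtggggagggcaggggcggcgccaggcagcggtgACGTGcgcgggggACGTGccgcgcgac
P4ha1: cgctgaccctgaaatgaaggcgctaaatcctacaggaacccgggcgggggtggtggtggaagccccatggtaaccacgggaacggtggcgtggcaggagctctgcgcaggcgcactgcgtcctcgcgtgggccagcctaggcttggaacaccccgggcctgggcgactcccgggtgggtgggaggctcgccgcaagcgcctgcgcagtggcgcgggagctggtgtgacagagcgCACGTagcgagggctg
The motif occurs 2 times in Ankrd37, 2 times in Slc16a3 and 1 time in P4ha1, where it reads on the other strand. A match of 5 letters is a description of the sequence and does not show that a factor binds there.

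Interferon-stimulated genes, the antiviral genes switched on by type I interferon, had negative log2 fold changes in 32 of 34 tested members, but few passed the test without the replicate block. Without it 7 fell and none rose, where 12.7% of all genes fell, and with it 29 fell and 1 rose, where 22.1% of all genes fell. The median was -0.57. Leaving out single libraries without the block moved the 7 to between 2 (without DMSO replicate 2 or Senexin B replicate 1) and 10 (without DMSO replicate 1), and it was 4 without DMSO replicate 3 or Senexin B replicate 2. Ifit3, which encodes a protein that binds viral RNA complexes, had 552, 1640 and 1526 normalised counts with DMSO and 114, 342 and 322 with Senexin B. Replicate 1 was the lowest in both groups, and within each number the treated library was lower. The fall was 4.78-fold (log2 fold change -2.26 ± 0.50 SE, adjusted p = 0.00475, and 1.78e-08 with the block). Ifit3b, a close paralogue whose reads can be hard to tell from those of Ifit3, fell 4.29-fold.

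Rsad2, the gene of the antiviral enzyme viperin, went from 240, 734 and 706 to 60.6, 181 and 254, and Zbp1, a sensor of nucleic acids, from 79.5, 223 and 198 to 22.6, 59.9 and 68. They fell 3.39-fold and 3.32-fold (adjusted p = 0.0261 and 0.0213). Mx2 fell 2.59-fold with overlapping groups, Stat2 1.74-fold and Trim25 1.29-fold. Isg15, which encodes a ubiquitin-like protein, had 530, 1371 and 1278 normalised counts with DMSO and 167, 797 and 844 with Senexin B. These groups overlap, and the difference passed only with the block (log2 fold change -0.81 ± 0.53 SE, adjusted p = 0.276, and 0.000408 with the block). The same was true of Irf7, a transcription factor gene of the interferon response (-0.66, adjusted p = 0.236 and 0.000168). Ifi27l2a went the other way, at 1028, 3689 and 3333 with DMSO and 793, 5505 and 6345 with Senexin B, and did not pass without or with the block (adjusted p = 0.509 and 0.053). Of 12 tested genes of antigen presentation, which interferon also induces, 1 rose and 1 fell, shares below the 14.8% and 12.7% of all genes. With the block 7 fell, where 22.1% of all genes did.

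The core of the interferon-stimulated response element was searched on both strands as GAAA, any 2 bases and GAAA again. It was found in the 250 bases before the start of 11 of the 23 list genes with a promoter in the table (47.8%), against 3.46% of all genes. The list was chosen as genes switched on by interferon, so a higher share is built in and says nothing about Senexin B. The promoters of Ifit3 and Rsad2, which are among the largest falls of the list, hold it in capitals, on the strand opposite to the gene, so that both GAAA stretches read TTTC. They lie at chr19:34583279-34583528 on the plus strand and chr12:26456453-26456702 on the minus strand.
Ifit3: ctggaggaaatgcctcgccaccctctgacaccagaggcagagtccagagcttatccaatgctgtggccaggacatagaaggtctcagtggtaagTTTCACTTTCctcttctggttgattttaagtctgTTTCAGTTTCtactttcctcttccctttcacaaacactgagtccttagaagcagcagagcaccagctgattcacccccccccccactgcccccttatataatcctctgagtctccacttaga
Rsad2: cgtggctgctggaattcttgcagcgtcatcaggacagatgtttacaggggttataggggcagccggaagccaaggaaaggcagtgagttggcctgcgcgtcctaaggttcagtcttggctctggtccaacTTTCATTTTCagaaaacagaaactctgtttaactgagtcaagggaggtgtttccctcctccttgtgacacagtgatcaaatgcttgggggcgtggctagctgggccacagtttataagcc
Ifit3 holds the motif 2 times and Rsad2 1 time.

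**Figure D3:**
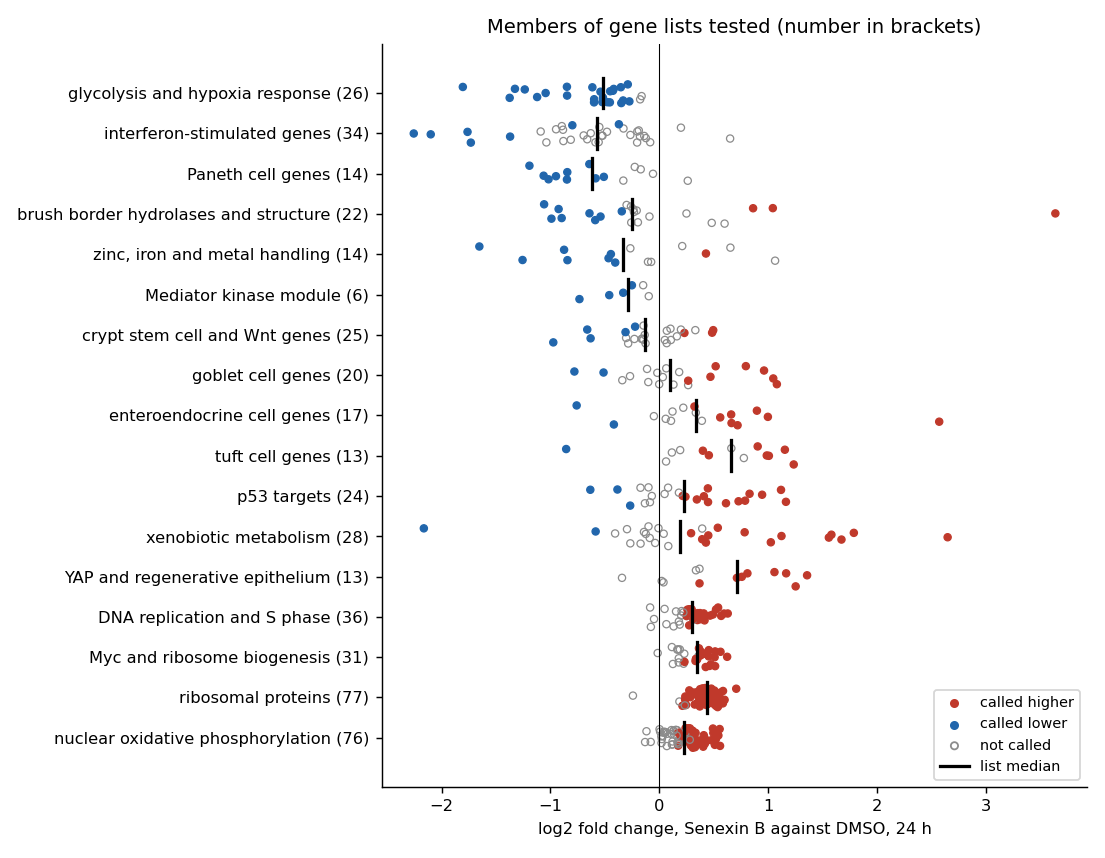
Log2 fold change at 24 h of every tested member of 17 gene lists, 1 row per list with the number of members in brackets; filled points were called higher or lower, open points were not called, and the black line is the list's median. The glycolysis and hypoxia list lies wholly below 0, and the ribosomal proteins cluster near 0.43.

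Paneth cells sit at the crypt base and secrete lysozyme and α-defensins. Of 14 tested Paneth cell genes 9 fell, against 12.7% of all genes, and none rose, with a median of -0.61. Lyz1, the lysozyme gene of these cells, had 17605, 16836 and 16442 normalised counts with DMSO and 11253, 7129 and 6759 with Senexin B, a 2.02-fold fall (adjusted p = 0.00123). Itln1, an intelectin gene, fell 2.29-fold, the defensin gene Defa30 2.09-fold and the angiogenin gene Ang4 1.93-fold, each without overlap. Mmp7, the protease that activates the defensins, was at 1648, 1661 and 1606 against 1431, 1296 and 1183 (adjusted p = 0.0943). It passed in the 6 libraries alone and with the block (adjusted p = 0.00917 and 0.000739). Defa22 was the exception in sign (0.26, adjusted p = 0.12), and it passed with the block (adjusted p = 0.0305) but not with the block on all 12 libraries (adjusted p = 0.0785). Defensin genes are near-identical copies, so reads could be split among them. In bulk RNA, fewer cells of a type and less RNA per cell cannot be told apart.

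Tuft cells are chemosensory cells, and 7 of 13 of their genes rose, against 14.8% of all genes, and 1 fell, with a median of 0.66. Only 4 rose without DMSO replicate 2 or Senexin B replicate 1. Ptgs1, the cyclooxygenase 1 gene, rose 2.36-fold, from 136, 110 and 131 to 311, 281 and 298 (adjusted p = 2.48e-05). Alox5ap, needed for leukotriene synthesis, rose 2.23-fold. The marker Dclk1 rose 1.37-fold, from 210, 173 and 200 to 304, 235 and 261 (adjusted p = 0.0214), and Pou2f3, the transcription factor gene that specifies these cells, 1.32-fold (adjusted p = 0.0354). Il17rb, the receptor for interleukin 25, fell 1.81-fold. Trpm5, their cation channel, did not pass (0.19, adjusted p = 0.279).

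Enteroendocrine genes rose in 8 of 17, against 14.8% of all genes, and fell in 2, near the 12.7% of all genes, with a median of 0.34. Beside Gcg, the hormone genes Cck (1.86-fold) and Sst (2.00-fold, from 8.77 to 20.0 up to 28.4 to 38.6 normalised counts) rose. Chga, the granule protein chromogranin A, rose 1.58-fold. Ghrl, the ghrelin gene, fell 1.69-fold, and Neurog3, the transcription factor gene of the progenitors of these cells, fell 1.33-fold, from 1009, 1083 and 1079 to 740, 760 and 875 (adjusted p = 0.00357).

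Of 20 goblet cell genes 7 rose, against 14.8% of all genes, and 2 fell, no more than the share of all genes (median 0.10). Their summed level was lower, 103598 to 116916 normalised counts with DMSO and 90273 to 101215 with Senexin B. Zg16 and Clca1, which encode secreted proteins of the mucus layer, rose 2.12-fold and 1.95-fold, and Agr2, the disulfide isomerase that folds mucins, rose 1.74-fold, from 3565, 3803 and 3835 to 5479, 7525 and 6450 (adjusted p = 0.000388). The chemokine gene Ccl9 rose 2.07-fold and the transcription factor gene Spdef 1.39-fold. Fcgbp and Ern2 fell 1.43-fold and 1.72-fold. Muc2, the main secreted mucin, had 5603, 4082 and 3976 normalised counts with DMSO and 4952, 4809 and 5197 with Senexin B. These groups overlapped and did not pass (log2 fold change 0.13 ± 0.13 SE, adjusted p = 0.48). Atoh1, the secretory lineage factor, was at 0.00 ± 0.12 SE.

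Of 8 genes that the study names for Cftr and mucus, 2 rose, Agr2 and Muc13, and none fell, where 14.8% of all genes rose and 12.7% fell. With the block 3 rose and 2 fell. The study named them for the double knockout organoids of this series, so their direction there is not independent evidence. It also reported, by quantitative PCR after 24 h of Senexin B, lower Cftr, higher Muc3 and a slight rise of Muc2. Muc13, a membrane mucin, went from 25158, 25531 and 25027 to 32016, 34398 and 35214, a 1.34-fold rise (adjusted p = 0.000379). Cftr, the chloride channel gene mutated in cystic fibrosis (chr6:18170687-18322768), had 3496, 3555 and 3851 normalised counts with DMSO and 3310, 2969 and 3280 with Senexin B. Every treated library was lower than every control, but the difference did not pass in the fit of 12 libraries without the block (log2 fold change -0.19 ± 0.09 SE, adjusted p = 0.151). It passed in the 6 libraries alone (adjusted p = 0.046), with the block (adjusted p = 0.0088) and with the block in DESeq2 (adjusted p = 0.0303), and not with the block and the exon length correction together (adjusted p = 0.0782). Gcnt4, a mucin glycosyltransferase gene, did not pass without the block and did with it (-0.19, adjusted p = 0.119 and 0.00998), but not with the block in DESeq2 (adjusted p = 0.0776). Muc3 (0.17), Nlrp6 (0.05) and Tff1 (0.98 ± 0.51 SE) did not pass. Tff1 passed with the block (adjusted p = 0.0391) and lost its call with the block on all 12 libraries (adjusted p = 0.116) and with the block in DESeq2 (adjusted p = 0.172).

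Genes of chloride and bicarbonate transport, Cftr included, rose in 9 of 27 tested, against 14.8% of all genes. The 3 that fell are near the 12.7% of all genes and became 1 without DMSO replicate 1 or Senexin B replicate 2. Ano1, a calcium-activated chloride channel gene, rose 1.87-fold, from 1175, 1004 and 1062 to 1772, 2218 and 2085 (adjusted p = 8.77e-05). Slc9a4, a sodium-proton exchanger gene, rose 2.01-fold and Slc12a2, the basolateral chloride importer NKCC1, 1.35-fold. Clca4a, a calcium-activated chloride channel regulator gene, fell 3.23-fold, from 180, 124 and 210 to 84.2, 36.5 and 38.6 (adjusted p = 0.000942).

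Lgr5, the receptor gene that marks crypt stem cells, fell 1.96-fold, from 11131, 10255 and 11479 to 6496, 4911 and 5331 (log2 fold change -0.97 ± 0.12 SE, adjusted p = 0.000112). Of 25 stem cell and Wnt genes, Lgr5 included, 3 rose and 5 fell, where 14.8% and 12.7% of all genes did, with a median of -0.13. With the block 5 rose, below the 22.2% of all genes, and 10 fell. The 10 stand against 22.1% of all genes lower with the block, and became 7 with the block on all 12 libraries or with the exon length correction added and 6 with the block in DESeq2. The 5 that fell without the block became 2 without DMSO replicate 3 and 3 without DMSO replicate 2 or Senexin B replicate 2 or 3. Olfm4, another stem cell marker, was at 24145, 28133 and 33686 against 34318, 28186 and 29848 and did not pass (0.10 ± 0.17 SE). Ascl2 and Axin2, targets of Wnt signalling, did not pass either (0.05 and -0.15). Tnfrsf19 fell 1.58-fold and Lef1 1.55-fold, whereas Cd44 rose 1.41-fold and Msi1 1.40-fold. In the Notch pathway 4 of 14 genes rose and 4 fell, against 14.8% and 12.7% of all genes. The receptor genes Notch1 and Notch3 fell (-0.49 and -0.72), and the ligand gene Dll1 and the target genes Hes1 and Nrarp rose (0.44, 0.30 and 0.88).

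Of 22 brush border genes of enterocytes 8 fell, against 12.7% of all genes, and 3 rose, near the 14.8% of all genes, with a median of -0.25. With the block 13 fell and 6 rose, where 22.1% and 22.2% of all genes did. Beside Lct, the peptidase genes Enpep (2.06-fold) and Anpep (1.82-fold) rose. Anpep had 8226, 14660 and 13454 normalised counts with DMSO and 15758, 23710 and 26611 with Senexin B, with replicate 1 lowest in both groups. Sis, the sucrase-isomaltase gene, fell 1.90-fold, from 19383, 21986 and 20354 to 8338, 10821 and 13358 (adjusted p = 0.00124), while Mep1a and Xpnpep2, both peptidase genes, fell 2.08-fold and 1.99-fold. Vil1, the villin gene, did not pass (-0.09). The fructose transporter gene Slc2a5 fell 2.28-fold, and Krt20, a keratin of mature villus cells, 1.77-fold. Isx, a homeobox gene that represses vitamin A uptake, fell 2.10-fold. Among 19 intestinal transcription factors 3 rose and 3 fell, shares near those of all genes, with Hnf4g at -0.47, Klf4 at -0.44 and Klf5 at 0.30.

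Metal transport genes fell in 7 of 14, against 12.7% of all genes, and rose in 1, below the 14.8% of all genes. Slc11a2, the iron importer DMT1, had 18890, 10513 and 12020 normalised counts with DMSO and 6710, 3066 and 3399 with Senexin B, a 3.14-fold fall (adjusted p = 0.000521). Replicate 1 was highest in both groups. The manganese exporter gene Slc30a10 fell 2.39-fold, and Slc39a14, which imports zinc, iron and manganese, fell 1.83-fold. Cybrd1, the ferric reductase of the brush border, fell 1.79-fold. The metallothionein gene Mt1 passed with the block (0.65, adjusted p = 0.155 and 0.00325) and not with the block in DESeq2 (adjusted p = 0.0689).

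Genes of foreign compound metabolism rose in 13 of 28, against 14.8% of all genes, and fell in 2, below the 12.7% of all genes. The 2 became 6 with the block, where 22.1% of all genes fell, and 5 with the exon length correction described below. Beside the Cyp3a genes, the glutathione transferase genes rose: Gstm1 3.19-fold, from 14647, 17436 and 16834 to 64013, 43256 and 48905, and Gsta2 2.99-fold. The families Cyp3a, Gstm and Gsta hold close copies whose reads could be split. Of 13 genes of the YAP and regenerative epithelium list, 8 rose and none fell, with a median of 0.71. Ly6a, the surface protein Sca-1 of the regenerating epithelium, rose 2.56-fold, and Clu, the clusterin gene, rose 2.38-fold, from 4806, 3786 and 3844 to 8613, 10372 and 10670 (adjusted p = 5.19e-06). Areg, an EGF receptor ligand gene, rose 2.24-fold and the matricellular gene Ccn1 2.08-fold. Of 18 inflammatory genes 6 rose and 1 fell. Duoxa2, which matures the peroxide-forming oxidase DUOX2, rose 2.45-fold, Nos2 rose 1.69-fold, and Saa1, a serum amyloid gene, went from 0.969, 0.975 and 1.91 to 44.1, 31.4 and 25.4 normalised counts. The controls of Saa1 were near 0 reads, so no fold is given. Of 20 immediate early genes 7 rose and 2 fell, the falls below the same 12.7% of all genes. Dusp1, a phosphatase gene, fell with Egr1 (-1.33), and Fosl1 and Ier5 rose (0.81 and 0.67).

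Many genes of growth and DNA synthesis rose by small amounts. Of 36 genes of DNA replication and S phase 23 rose and none fell, with a median of 0.30, against 14.8% of all genes called higher, and with the block 30 rose. Leaving out DMSO replicate 1, Senexin B replicate 2 or Senexin B replicate 3 left 15 called. Gins1, a subunit of the replicative helicase, rose 1.55-fold (adjusted p = 0.00149). Chaf1b, a histone chaperone gene, rose 1.51-fold, from 831, 946 and 1003 to 1207, 1540 and 1454, E2f1, the transcription factor gene that drives S phase, 1.48-fold and Mcm3, a helicase subunit, 1.32-fold. Of 31 genes of mitosis 10 rose and none fell, and 5 rose without DMSO replicate 1 and 6 without Senexin B replicate 2. Ccna2 and Ccnb2, cyclin genes of S phase and mitosis, did not pass (0.12 and 0.17). Ccnb2 passed with the block (adjusted p = 0.0423) and not with the block on all 12 libraries (adjusted p = 0.0672), and Ccne2 did not pass (-0.08). Of 67 listed replication-dependent histones, whose messages carry no poly(A) tail, only 13 were tested. Of these, 3 fell, where 12.7% of all genes did, and none rose, with Hist1h1c 1.98-fold lower. The labels disagree on poly(A) selection, and its part in these counts was not tested.

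Myc rose 1.30-fold, from 5152, 5970 and 6098 to 7066, 7437 and 7933 (adjusted p = 0.00333). Of 31 genes of the Myc and ribosome biogenesis list 20 rose, against 14.8% of all genes, and none fell, with a median of 0.35. Srm, the spermidine synthase gene, rose 1.54-fold, and the ribosome assembly genes Rrp12, Mrto4 and Rrs1 rose by 0.56, 0.51 and 0.51. Against the same share, ribosomal protein genes rose in 74 of 77 tested, and none fell, with a median of 0.43. Rps29 showed the largest rise (0.71), and Rps6 went from 35725, 32931 and 34648 to 47770, 49098 and 45861. Pseudogene copies of these genes make single values uncertain. Nuclear genes of oxidative phosphorylation rose in 42 of 76, with a median of 0.23 (25 without DMSO replicate 1), and genes of the mitochondrial genome in 4 of 11, a count of 1 without Senexin B replicate 3 and of 2 without DMSO replicate 2 or 3 or Senexin B replicate 2. The largest of the latter was mt-Nd6 (1.32), the only protein gene on its strand of that genome, and 9.46% to 11.6% of stranded gene counts in these libraries fell on the opposite strand.

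Short transcripts stood higher and long ones lower with Senexin B at 24 h. Over 11125 protein-coding genes that averaged 50 or more normalised counts, Spearman's rho between log2 fold change and summed exon length was -0.323 at 24 h and -0.0899 at 16 h. This is a description across genes, which share the same 6 libraries. The median change went from 0.22 in genes up to 1000 bases to -0.13 in genes over 8000 bases, where 5.38% were called higher and 27.0% lower. A correction of each library for this trend, chosen after seeing the data, brought rho to -0.0707 and called 3936 of 15460 genes (25.5%), 13.7% higher and 11.7% lower. With it 71 of 77 ribosomal protein genes rose (median 0.36), 28 of 76 oxidative phosphorylation genes (median 0.14) and 1 mitochondrial gene. Counts for the hypoxia list (24 lower), the Paneth cell genes (9 lower) and the S phase genes (21 higher) stayed close to those above. The part of transcript length in these results was not tested, nor that of the RNA selection, on which the labels disagree.

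**Figure D4:**
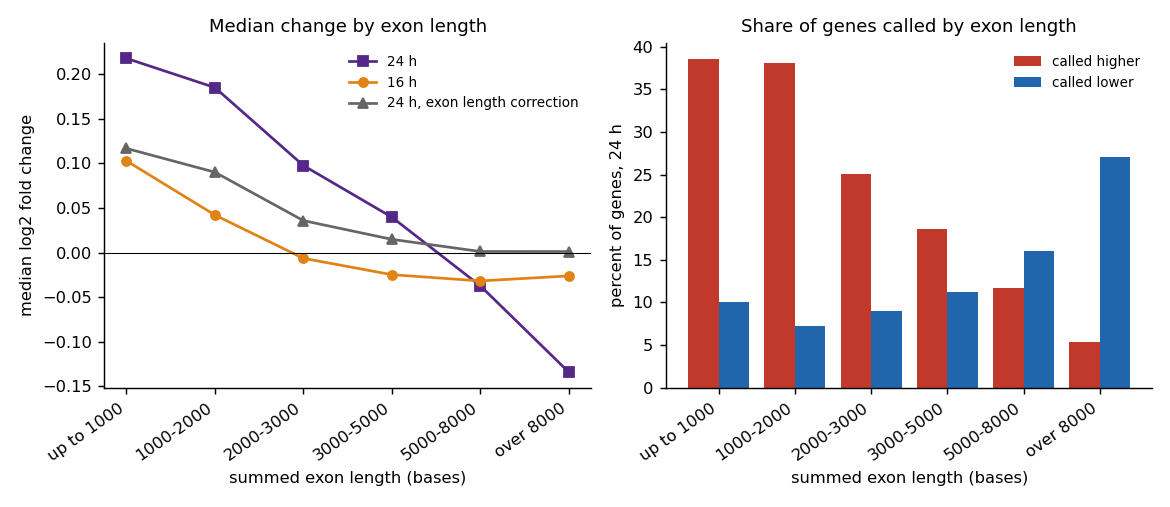
Left, median log2 fold change of protein-coding genes in 6 classes of summed exon length in bases, at 24 h, at 16 h and at 24 h after the exon length correction. Right, percent of genes in each class called higher or lower at 24 h, where the share called higher fell by length from 38.5% to 5.38% and the share called lower reached 27.0% above 8000 bases.

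Genes driven by p53 rose in 13 of 24, against 14.8% of all genes (median 0.23). The 3 that fell are near the 12.7% of all genes and became 1 without DMSO replicate 1 or Senexin B replicate 2. Plk2, a polo-like kinase gene, rose 1.93-fold, from 592, 545 and 576 to 1126, 1136 and 1037, and Gdf15, a stress cytokine gene, rose 2.17-fold. Bax, which promotes apoptosis, rose 1.73-fold, the nuclease gene Aen 1.66-fold and the cyclin gene Ccng1 1.33-fold. Cdkn1a, the cell cycle inhibitor p21, fell 1.30-fold, from 5684, 4411 and 4546 to 4200, 3749 and 3271 (adjusted p = 0.0296), and the death receptor gene Fas fell 1.55-fold. Trp53 itself rose 1.16-fold, and Mdm2, its ubiquitin ligase, did not pass (0.08).

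Lists of stress, lipid and other genes are read against the 14.8% of all genes called higher and the 12.7% called lower, and with the block against 22.2% and 22.1%. Of 17 integrated stress response genes 5 rose and none fell, and 11 rose with the block; Mthfd2, a mitochondrial folate enzyme gene, rose by 0.81 and Nupr1 by 0.84. Of 16 unfolded protein response genes 5 rose and 1 fell, with Sdf2l1 at 0.54 and Manf at 0.47, and 3 rose without DMSO replicate 1 or 3 or Senexin B replicate 2 or 3. Cholesterol synthesis genes rose in 2 of 24 and fell in 6, and with the block 12 fell. The 6 became 1 without Senexin B replicate 3, 2 without DMSO replicate 3 and 3 without Senexin B replicate 2. Hmgcs1, an early enzyme of the pathway, fell by 0.48 on the log2 scale. Fatty acid oxidation genes fell in 3 of 22, a share near that of all genes, and with the block in 10, with Ehhadh at -0.52. Of 13 fatty acid synthesis genes 1 rose and 3 fell. Among 19 genes of fat absorption 3 rose and 3 fell, shares near those of all genes, and single libraries left out moved these to 0 to 5 and 1 to 4, with Apob at -0.49 and Apoa1 at 0.51. Of 19 sugar, amino acid and peptide transporters 5 rose and 4 fell (2 without DMSO replicate 2 or any 1 of the Senexin B libraries), with the glutamate transporter gene Slc1a1 at 0.84. In ileal bile acid handling 1 of 7 rose, the hormone gene Fgf15 (0.98). Of 8 genes of the BMP response none rose and 3 fell, with the ligand gene Bmp2 at -0.86 and Id2 at -0.46. Of 9 antimicrobial genes 3 rose, 1 of them without overlap, and 1 rose without Senexin B replicate 2 and with the block in DESeq2. Reg3b had 115, 122 and 96.2 normalised counts with DMSO and 113, 753 and 413 with Senexin B, so its rise rested on replicates 2 and 3. Of 6 membrane-bound mucins Muc1 and Muc13 rose and none fell.

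The same treatment at 16 h, against its own DMSO libraries, called 1198 of 15467 genes (7.75%), 4.36% higher and 3.39% lower. With the replicate number as a block on all 12 libraries it called 2338 (15.1%), 7.82% higher and 7.3% lower, and the same fit called 5872 at 24 h. The 1198 became 1819 without DMSO replicate 1 of that time and 752, 657 or 676 without Senexin B replicate 1, 2 or 3. Of the 1198 genes, 937 were also called at 24 h without the block. Of these, 936 moved in the same direction, which is 22.0% of the calls at 24 h and 78.1% of those at 16 h. Of the 4252 genes called at 24 h, 3837 (90.2%) had the same sign at 16 h. Egr1 had log2 fold changes of -2.22 ± 0.15 SE at 16 h and -2.30 ± 0.15 SE at 24 h. Lct had 2.30 at 16 h and 3.64 at 24 h, and Krt4 1.27 and 2.31; both were named for their size at 24 h, so the order of the times is not read from them. By list, 16 of 26 hypoxia genes, 3 of 14 Paneth cell genes, 8 of 13 regenerative genes and 8 of 77 ribosomal protein genes were called at 16 h in the direction seen at 24 h. None of 34 interferon-stimulated genes was called at 16 h without a block. Among S phase genes none was called higher and 1 lower at 16 h, with a median of -0.02. With that block on 12 libraries at 16 h, 6 interferon-stimulated genes were lower and 1 higher, 3 S phase genes were higher and 6 lower, and 22 hypoxia, 6 Paneth cell and 23 ribosomal protein genes were called in the direction seen at 24 h.

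The difference between the effects at the 2 times was tested directly. In the main fit of 12 libraries without a block edgeR called no gene, with 1995 genes at an unadjusted p under 0.05, while DESeq2 called 69. Without the count filter edgeR called 121, and with single libraries left out 0 to 26. With the block on all 12 libraries 325 genes (2.1%) differed, 135 more positive (0.873%) and 190 more negative (1.23%) at 24 h. Among these were Clca4a (difference -1.74, adjusted p = 0.0294), Rsad2 (-1.42, adjusted p = 0.0342), Lct (1.40, adjusted p = 0.0481) and E2f1 (0.56, adjusted p = 0.0363). Of the S phase genes 11 of 36 were more positive at 24 h and none more negative. The smaller number of calls at 16 h does not by itself show a smaller effect, and the 2 times were cultured with separate controls.

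**Figure D5:**
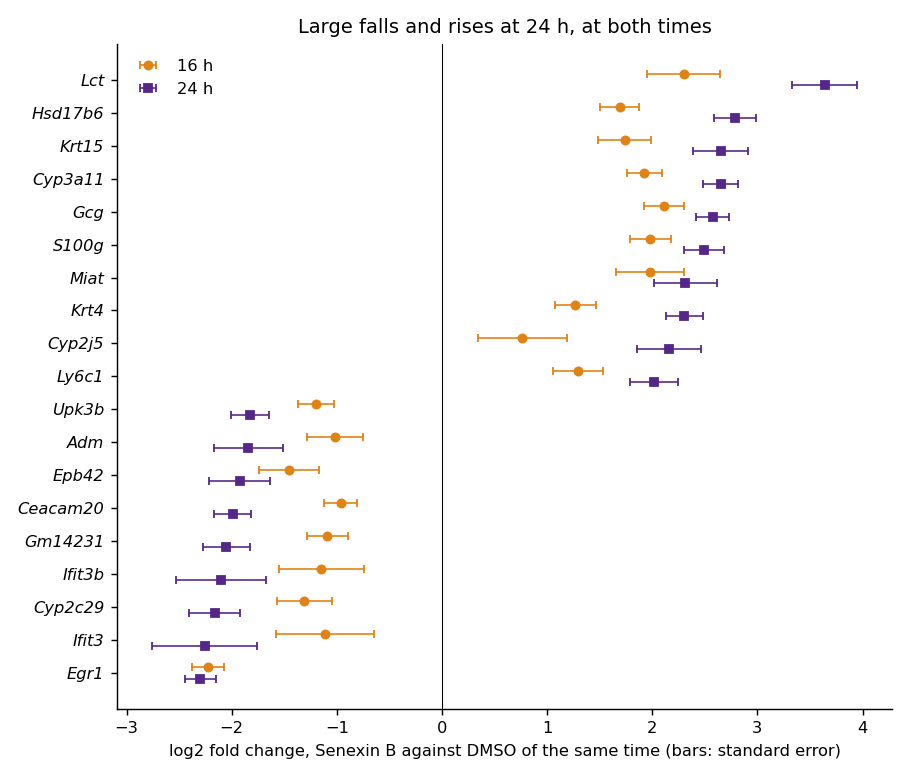
Log2 fold change with standard error of the 10 largest rises and 9 of the 10 largest falls at 24 h, shown at 16 h (circles) and 24 h (squares), each against DMSO of the same time. All 19 genes have the same sign at both times, Egr1 lies at nearly the same place, and Lct moved from 2.30 to 3.64.

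Inhibition for 24 h and deletion of both kinases were set side by side. The double knockout differed from its wild type in 2700 of 15602 genes (17.3%), 9.41% higher and 7.9% lower. These libraries hold no strand information and share no control with the inhibitor libraries. They were fitted on the same strand column, which held 14636861 to 15473180 of their 27761454 to 29299919 gene counts, and the column without strand called 2907 genes. Without wild type replicate 1, 2 or 3 the count was 1348, 1454 or 1795. Cdk8 was deleted over 7 days of 4-hydroxytamoxifen and Cdk19 with lentiviral Cas9 under antibiotic selection, so time, vector and kinase loss cannot be told apart. Of 14261 genes tested in both, 941 were called in both, 328 in the same direction and 613 in opposite directions. The 328 are 8% of the calls at 24 h and 12.8% of those of the knockout. Egr1 was lower in both (log2 fold change -2.30 with the inhibitor and -2.19 in the knockout), as were Lgr5 (-0.97 and -1.23), Notch1 (-0.49 and -0.71) and Cyp2c29 (-2.16 and -1.42). Muc13, Zg16, Areg and Plk2 were higher in both, with 0.42, 1.08, 1.17 and 0.95 at 24 h and 0.73, 1.2, 1.16 and 1.3 in the knockout. The knockout call of Zg16 was lost in the 6 libraries alone (adjusted p = 0.0514) and that of both Zg16 and Areg without double knockout replicate 2 (adjusted p = 0.0714 and 0.0584), wild type replicate 1 (0.0816 and 0.0632) or wild type replicate 2 (0.0751 and 0.0538).

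Lists differed in whether they moved the same way. Of all genes, 14.8% were called higher and 12.7% lower with the inhibitor, and 9.41% and 7.9% in the knockout. Genes driven by p53, 13 of 24 higher with the inhibitor, were higher in 18 of 24 in the knockout. Regenerative genes were higher in 8 of 13 and 6 of 16, and chloride and bicarbonate transport genes in 9 of 27 and 8 of 29. Stem cell and Wnt genes were lower in 5 of 25 and 15 of 25, and higher in 3 with the inhibitor and none in the knockout. With single inhibitor libraries left out, the 5 ranged from 2 to 5. Other lists did not move the same way in both. Paneth cell genes, 9 of 14 lower with the inhibitor, were higher in 11 of 13 in the knockout, with Lyz1 at -1.02 and 2.13. Brush border genes were higher in 16 of 22 in the knockout and lower in none, and Mep1a stood at -1.06 and 1.38. S phase genes, higher in 23 of 36 with the inhibitor, were lower in 28 in the knockout, with E2f1 at 0.57 and -0.62. Cdkn1a was at -0.38 and 1.43, and Myc at 0.38 and -0.63. Cftr was at -0.19 and -0.62 (adjusted p = 0.151 and 0.0505). The second value lay at the threshold: the column without strand put it at adjusted p = 0.0494, DESeq2 at 0.0209, and leaving out single libraries at 0.00884 to 0.186. Tuft cell genes, 7 of 13 higher with the inhibitor, were higher in none and lower in 2 of 13 in the knockout (median -0.64). These 2 calls are too few to show a fall of the list. Interferon-stimulated genes, 7 of 34 lower with the inhibitor, were higher in 4 and lower in none in the knockout (median 1.25), a share near the 9.41% of all genes. The hypoxia list, 24 of 26 lower with the inhibitor, had 1 higher and none lower (median -0.05). Ribosomal protein genes, 74 of 77 higher with the inhibitor, were lower in 51 of 75 and higher in none (median -0.67). Several genes with many pseudogene copies had few counts in the genotype libraries: Rps6 averaged 32.1 normalised counts in wild type and 34434 with DMSO at 24 h, and Gapdh 225 and 95447, each experiment on its own scale. Multimapping reads were 19.5% to 22.9% of the reads there and 7.25% to 8.12% at 24 h, and their part in these lists was not tested. The difference between the 2 experiments was not tested, since each gene's effect comes from its own fit.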

How the data were processed

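Total RNA of the organoids was sequenced as single-end reads of 50 bases. The growth protocol in the labels describes biological triplicates, and the labels disagree on whether libraries were rRNA-depleted or poly(A)-selected. The study's sequencing methods describe poly(A) selection with oligo(dT) beads, and they do not name the Senexin B libraries. The deposited files hold raw read counts per gene, which the authors made with STAR (2.6.0c in the submitters' processing notes, 2.6.0a in the methods) on GRCm38.p6 and Ensembl release 93. Counts came from the fourth column, one strand, for all libraries. The genotype libraries carry no strand information, so that column held about as many of their counts as the opposite strand's. Of the reads of the 24 h libraries 21.5% to 24.8% were on no gene there, and summary rows that name no gene were left out. Gene positions and exon lengths came from GENCODE on GRCm38 (54079 genes matched), and promoters from RefSeq.

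Genes were kept with filterByExpr, scaled by TMM and tested with edgeR 4.0.16 (quasi-likelihood, Benjamini-Hochberg, called at an adjusted p under 0.05) in R 4.3.3. The 12 inhibitor libraries shared 1 fit without a block. Normalised counts are counts scaled by TMM. DESeq2 1.42.0, the tool of the study, and the other settings in the closing section were alternatives. The code was tested on simulated data. No libraries were duplicates.

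Deviations from group means at 24 h correlated between same-numbered libraries (r = 0.377, 0.137 and 0.187), so numbers were taken to pair them, though DMSO replicate 3 and Senexin B replicate 2 gave 0.147. At 16 h r was 0.303, 0.101 and 0.110, and 0.154 between those replicates, so replicates 2 and 3 were not clearly paired.

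Genes were named if called, without overlap, averaging 50 or more normalised counts and among the 10 largest rises or falls, among the 5 smallest p-values in each direction, named by the study for organoids, or among the 4 largest called or defining members of a list. Other genes named in the text come from the lists and were chosen after their values were seen. The comparison and the 43 lists were chosen with earlier results of these data known. A few genes are not reported here.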

Additional observations from a re-analysis of the deposited data

Results flagged for a closer look

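For 30 of the named genes the effect of Senexin B at 24 h differed from that at 16 h in edgeR's fit of all 12 inhibitor libraries with the replicate block (adjusted p under 0.05), while none did in the fit without it. Over all genes tested 325 (2.1%) differed. Most of the 30 were named for their size or p-value at 24 h, a choice that favours larger values at that time, so their number is no result. Values are the log2 fold change at 24 h minus that at 16 h.

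More positive at 24 h were, among the genes with the largest rises or smallest p-values, Lct (1.40), Hsd17b6 (1.10), Slc20a1 (0.55), Tmsb4x (0.47) and Cyp3a25 (0.45). Of growth and replication genes, E2f1 (0.56), Chaf1b (0.55), Srm (0.46), Mrto4 (0.41), Rrs1 (0.39), Rrp12 (0.36) and Rpa2 (0.36) were more positive. The others were mt-Nd6 (1.19), Mthfd2 (0.82), Zg16 (0.54), Nrarp (0.43) and Manf (0.41).

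More negative at 24 h were Clca4a (-1.74), Rsad2 (-1.42), Krt20 (-1.04), Ceacam20 (-1.03) and Tnfrsf19 (-0.85). The metal transporters Slc30a10 (-0.72) and Slc11a2 (-0.50), the Paneth cell genes Ang4 (-0.64) and Defa30 (-0.62), Upk3b (-0.67), Apob (-0.61), Bnip3 (-0.60) and Med13 (-0.50) followed.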

How the results depend on the processing

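Of 168 called named genes, 129 kept their call and direction under all 17 alternatives. The exon length correction and DESeq2 with the block were chosen after seeing the data. At 24 h the replicate block on only the 6 libraries called 6642 genes in place of 4252. The count was 4605 in those 6 libraries without it and 5872 with the block on 12 libraries. DESeq2 called 4228 with the block on the 6 libraries and 4254 without it on 12 libraries. Leaving out single libraries gave 2656 to 3805. Of the 4252, 4198 were also called with the block on the 6 libraries. For the difference between the times, 0 without the block, DESeq2 called 69, no filter 121, the replicate block on 12 libraries 325, and leaving out single libraries 0 to 26 (26 without Senexin B at 24 h replicate 1, and 7 and 1 without DMSO at 16 h replicates 1 and 2). At 16 h, 1198 became 725 with only its 6 libraries, 2338 with the replicate block on 12 libraries and 657 to 1819 with single libraries left out. For the double knockout, 2700 became 1348 to 2452 with single libraries left out. Signs turned in genes that did not pass the test: with single libraries left out, Muc3 ranged from -0.016 (without Senexin B replicate 3) to 0.43, Nlrp6 from -0.057 (without Senexin B replicate 1) to 0.099, Olfm4 from -0.0070 (without DMSO replicate 1) to 0.24, and Ccne2 from -0.24 to 0.13 (without Senexin B replicate 1, and 0.025 without DMSO replicate 3). Cdk8 stood at 0.015 with the exon length correction and 0.013 with the replicate block as well. The cause was not tested. At these depths the spread between replicates rather than counting error limits most well expressed genes.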
